A study of Mus musculus with 36 samples.

Results

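The 33 genes described here encode the machinery that copies DNA in S phase. They were taken as a named list, and each was read from its brightest probe set that maps to a single gene symbol, out of 18193 genes measured this way. All 33 had such a probe set, and 32 were bright enough to be tested. Tyms, which encodes thymidylate synthase, averaged only log2 4.53 and exceeded the median of the whole data set in 1 array only, so it was not tested. The arrays held RNA from 6 populations sorted from the thymus of male wild-type C57BL/6J mice aged 1, 3 or 6 months, with 2 arrays per population and age (36 arrays). Sorted were thymic epithelial cells of the cortex (cTEC) and of the medulla, the latter low (mTEClo) or high (mTEChi) for CD80 and MHC class II, Sirpa- and Sirpa+ dendritic cells (DC), and fibroblasts. None of the mice was treated or genetically modified, per the labels.

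Replication begins in G1 with licensing, when the origin recognition complex (Orc genes), Cdc6 and Cdt1 load the Mcm2 to Mcm7 helicase ring onto DNA. Cyclin E with its kinase, Mcm10, Cdc45 and the GINS complex then switch the helicase on, and the fork proteins copy both strands with nucleotides supplied by ribonucleotide reductase, thymidine kinase and thymidylate synthase. Transcription of most of these genes peaks around the G1/S boundary under E2F factors, so in bulk RNA they are commonly read as a measure of dividing cells. Thymic epithelium is known for a high turnover in young animals, and mTEChi arise largely from mTEClo. Because the arrays measured bulk RNA, fewer cells in S phase and less RNA per such cell cannot be told apart.

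E2F factors bind short GC-rich letters. As examples, 4 promoters are shown of members that fell with age in both cTEC and mTEClo, 3 with such letters and 1 without. Other members also fell in both, such as Uhrf1 with a match and Mcm10 and Chek1 without, so the 4 do not give the share with a match. RefSeq (GRCm38.p6) gave promoter windows, from 250 bases before to 50 after a start site, for 28 of the 33 members. Mcm4, Ccne2, Gins1, Gins2 and Pole had no entry. TTTGGCGC, TTTCCCGC, TTTGCCGC or TTTCGCGC stood on either strand in the window of 12 of these 28 genes (42.9%), against 4.28% of the 11627 tested genes with a window and 2.6% of all 27025 genes. In 8 of the 12, at least 1 match lay before the start site. CCAAT was found for 17 of the 28 members (60.7%) and for 42.0% of the tested genes. The 250 bases before the start are printed 5′ to 3′ on the gene's strand, with matches to the E2F-type letters in capitals.
Mcm6 promoter, chr1:128359706-128359955, minus strand: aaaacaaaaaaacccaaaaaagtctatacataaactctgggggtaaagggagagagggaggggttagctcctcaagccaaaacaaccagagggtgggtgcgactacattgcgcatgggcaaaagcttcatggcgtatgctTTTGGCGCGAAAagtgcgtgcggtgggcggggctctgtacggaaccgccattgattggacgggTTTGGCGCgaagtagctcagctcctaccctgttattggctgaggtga
Mcm5 promoter, chr8:75109259-75109508, plus strand: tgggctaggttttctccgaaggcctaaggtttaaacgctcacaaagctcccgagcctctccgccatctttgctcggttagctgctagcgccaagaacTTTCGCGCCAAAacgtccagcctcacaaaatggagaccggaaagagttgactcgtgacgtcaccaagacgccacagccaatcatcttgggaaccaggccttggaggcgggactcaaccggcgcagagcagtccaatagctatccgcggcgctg
Cdc6 promoter, chr11:98907901-98908150, plus strand: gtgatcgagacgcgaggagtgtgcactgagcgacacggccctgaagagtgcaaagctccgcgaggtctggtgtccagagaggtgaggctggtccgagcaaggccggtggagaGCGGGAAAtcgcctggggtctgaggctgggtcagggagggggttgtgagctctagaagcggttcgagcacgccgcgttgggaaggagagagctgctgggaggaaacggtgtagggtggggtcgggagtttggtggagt
Rrm2 promoter, chr12:24708004-24708253, plus strand: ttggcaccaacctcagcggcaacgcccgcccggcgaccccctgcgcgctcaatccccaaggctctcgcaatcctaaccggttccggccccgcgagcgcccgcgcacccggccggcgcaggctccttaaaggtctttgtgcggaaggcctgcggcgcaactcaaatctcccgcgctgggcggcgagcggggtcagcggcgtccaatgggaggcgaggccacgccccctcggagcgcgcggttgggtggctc
Mcm6 carried 3 matches, of which a neighbouring pair overlaps, and Mcm5 carried 2 that overlap. Rrm2, the member with the largest fall in cTEC between 1 and 3 months, held none of these letters and 1 CCAAT in the stretch shown. A match is a description of letters, and its absence says nothing of E2F at that gene.

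The arrays' medians lay between log2 5.61 and 5.75, and with 2 arrays per group their number sets the precision. The marker genes of each population were, on average, higher in every one of its 6 arrays than in any other array, for instance 10.03 to 11.63 against at most 8.85 for 7 cTEC markers. Some arrays also carried RNA of other cells. The mean of 12 thymocyte markers, such as Rag1, Dntt and Cd3g, was 8.87 to 11.15 in the fibroblast arrays and 6.69 to 8.71 in the cTEC arrays. It was 5.80 to 7.20 in the mTEC arrays and 6.07 to 8.0 in the DC arrays. Thymocytes divide in large numbers, and these values are therefore given beside the changes with age in cTEC, mTEClo and fibroblasts. The labels name 1 mouse per sample and the series' design text 2 mice per age, so the spread behind the p-values may be no more than that between samples of a few animals.

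Across populations, nearly all replication genes had their highest mean in Sirpa- DC or fibroblasts, and most had their lowest in cTEC. Of the 32 members tested, 16 had their highest mean in Sirpa- DC, 15 in fibroblasts and 1, Pold1, in mTEChi. The lowest mean fell in cTEC for 23, in mTEChi for 5 and in mTEClo for 4. The fibroblast means join ages that differed. Averaged over the 32 members, each centred on its own mean, they were −0.15 at 1 month, 1.65 at 3 months and 0.56 at 6 months. In Sirpa- DC this average was 0.69, 0.64 and 0.61. The fibroblast arrays also had the highest thymocyte marker means, 8.87 to 11.15. The 18 group means of most members ran closely together. Pearson's r of a member with the mean of the other members was at least 0.85 for 24 of 32, the highest being Prim1 (0.976), which encodes the DNA primase subunit that starts new strands. The members least alike were Pold1 (0.36), Rfc3 (0.51), Fen1 (0.63) and Orc1 (0.68). These correlations are descriptive, since the members share their arrays. The genes with the widest range between group means were Ccne2 (5.31 log2 units), Cdc6 (5.08), Rrm2 (4.89) and Uhrf1 (4.77), and the narrowest was Orc1 (1.68). The lowest group means of Ccne2 (4.25) and Cdc6 (5.22) lay below the median of the whole data set (5.66), so dim signal limits their ranges.

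**Figure D1:**
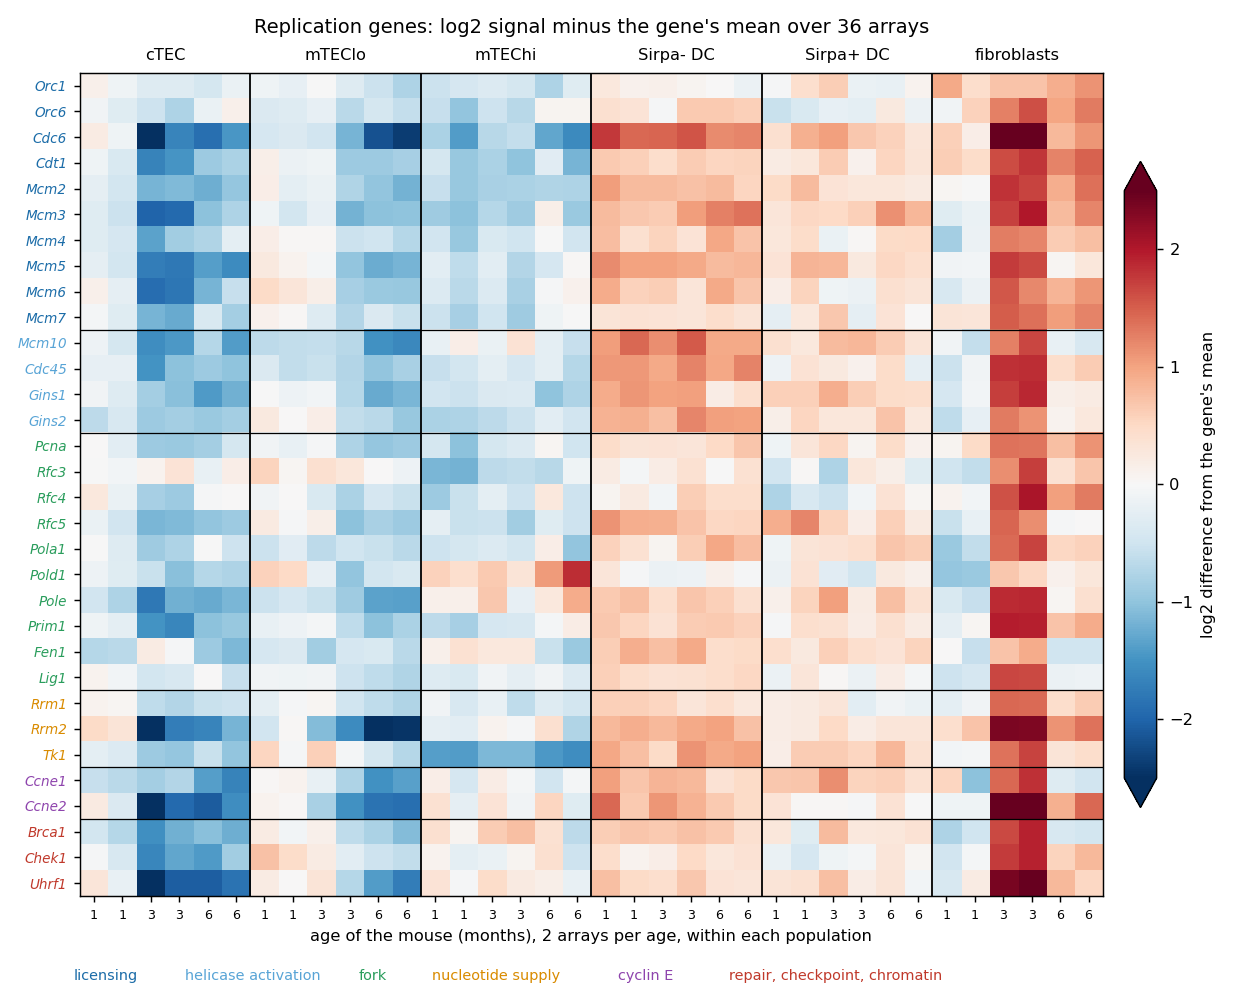
Log2 signal of the 32 replication genes tested (rows, grouped and coloured by role) in each of the 36 arrays (columns, ordered by population and age in months), shown as the difference from the gene's mean over all arrays. Red is higher and blue lower, with the colours ending at 2.5 log2 units. The 3-month fibroblast arrays are the reddest columns for nearly every gene, and the 3- and 6-month cTEC and 6-month mTEClo arrays are the bluest.

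Outside the list, the 10 genes whose 18 group means were most like the members' average were Atad2 (Pearson's r = 0.985), Ticrr, Dtl, Gmnn, Chaf1b, Nap1l1, Neil3, Rad51ap1, Cenpn and Clspn (0.956). Ticrr, which couples cyclin-dependent kinase to origin firing, and Gmnn, which encodes the Cdt1 inhibitor geminin, are themselves regulators of replication.

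In Sirpa- DC, 9 of 32 members were called higher than the mean of the other 5 populations and 0 lower, namely 3 of 4 helicase-activation, 2 of 3 nucleotide, 3 of 10 licensing and 1 of 2 cyclin E genes. Here a call needed an adjusted p under 0.05 from limma with Benjamini-Hochberg adjustment over all 14495 genes tested and a difference of at least 2-fold. Among all genes, 6.2% were called higher and 13% lower in Sirpa- DC. Cdc6, the loader of the helicase ring, averaged 8.93 ± 0.22 (SD, n = 6) in Sirpa- DC, against 8.14 ± 0.28 in Sirpa+ DC and 6.25 ± 1.08 in cTEC. Its difference from the other 5 was 1.73 ± 0.12 (SE, log2 scale; limma adjusted p = 5.4e-12). Mcm10 (1.41 ± 0.11) and Cdc45 (1.31 ± 0.10), which help to activate the helicase, came next. Gins2, Mcm3, Mcm5, Rrm2, Tk1 and Ccne2 were higher by 1.04 to 1.15. By role, the median difference was 1.23 for the 4 helicase-activation genes, 1.05 for the 3 nucleotide genes, 0.78 for the 10 licensing genes and 0.61 for the 10 fork genes, none of which reached a 2-fold difference. All 32 members were above 0, with a median of 0.75 against −0.03 over all genes.

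Sirpa+ DC lay between Sirpa- DC and the epithelium. No member was called against the other 5 populations (limma; background 6.7% higher and 10.2% lower), although 20 were higher and 2 lower at an unadjusted p under 0.05, and the median was 0.34. Compared directly, 31 of 32 members had a lower mean in Sirpa+ than in Sirpa- DC, with a median of −0.35 against 0.0025 over all genes. None passed both thresholds (limma; background 1.5% lower and 3.87% higher), and 20 had an unadjusted p under 0.05, all lower. Cdc45 came nearest, at −0.96 ± 0.13, with 7.98, 7.97, 7.84, 8.13, 7.86 and 8.14 in the Sirpa- arrays and 6.76, 7.26, 7.14, 7.0, 7.36 and 6.67 in the Sirpa+ arrays. The arrays of the 2 DC populations did not overlap for 7 members, Cdc45 included (5.14% of all genes were lower without overlap). The difference in Cdc45 rested on its brighter probe set, since the dimmer one differed by −0.06.

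Against the DC populations, 16 of the 32 members were lower in the epithelium. With the 3 epithelial and the 2 DC populations averaged, these 16 passed the test as lower and 0 as higher (limma; background 8.6% lower and 15.9% higher), with a median of −0.999 against 0.014 over all genes. Cdc6 differed most (−2.20 ± 0.10; limma adjusted p = 3.8e-16). It ranged from 4.93 to 7.70 over the 18 epithelial arrays and from 7.79 to 9.26 over the 12 DC arrays, so the groups did not overlap. Mcm2, Mcm3, Gins1 and Ccne1 also did not overlap (5.39% of all genes were lower without overlap). All 4 helicase-activation genes, both cyclin E genes, 5 of 10 licensing genes, Rrm2 and Tk1, Pole and Rfc5, and Uhrf1 were called. Pold1 (0.03), the catalytic subunit of polymerase delta, was the only member with a higher epithelial mean. Of 56 further replication genes tested, 16 were lower and 0 higher, led by the nuclease gene Dna2 (−3.67), Timeless (−2.45), a fork-protection gene, the histone chaperone gene Asf1b (−2.19) and Dck (−2.14), the salvage enzyme deoxycytidine kinase.

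In cTEC, 15 of 32 members were called lower than in the other 5 populations (limma; background 6.37% lower and 9.73% higher), led by Ccne2 (−1.71 ± 0.15), Uhrf1 (−1.70 ± 0.13), which encodes a hemimethylated-DNA reader, Cdc6 (−1.49 ± 0.12) and Mcm5 (−1.43 ± 0.11). The 3 repair, checkpoint and chromatin genes were all called, and 6 of 10 licensing genes, but 2 of 10 fork genes. The cTEC arrays covered a wide span for these genes, with the 1-month arrays at its upper end for Cdc6, Ccne2, Rrm2 and Uhrf1. Compared with the mean of both mTEC populations, Uhrf1 (−1.22 ± 0.14) was the only member called (limma; background 8.24% lower and 5.4% higher), and this count was 2 or 3 on leaving out any of 8 of 18 arrays (the second 3-month mTEClo array, the second mTEChi array of each age, the first 1-month, second 3-month and both 6-month cTEC arrays). At an unadjusted p under 0.05, 21 members were lower and 1 was higher in cTEC than in mTEC. Of the 12 thymocyte markers, 8 were higher and 0 lower in cTEC than in mTEC. In mTEClo, Rrm2 (−1.64 ± 0.12), Cdc6, Ccne2, Mcm10 and Pole were lower than in the other populations (background 5.37% lower and 9.42% higher).

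Few members differed between the medullary populations, and no larger a share than among all genes. The 10 licensing genes differed by −0.31 to 0.13, and none was called. Between mTEChi and mTEClo, 3 members were higher and 1 was lower in mTEChi (limma; background 11.8% higher and 7.81% lower), and the median was 0.02. The lower one was Tk1, the thymidine salvage kinase of dividing cells. Tk1 measured 6.87, 6.83, 7.12, 7.12, 6.81 and 6.69 in the mTEChi arrays and 8.77, 8.20, 8.84, 8.19, 7.80 and 7.53 in the mTEClo arrays. Every mTEChi array was below every mTEClo array and below every other array of the study (minimum elsewhere 7.24), which held for 1.15% of all genes; 13.5% were lower in mTEChi than in mTEClo without overlap. The difference was −1.31 ± 0.14 from mTEClo and −1.60 ± 0.11 from the other 5 populations (limma adjusted p = 1.1e-12), where Cdc6 (−1.28 ± 0.12) was the other member called (background 5.31% lower and 13.9% higher).

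Rrm2, the regulated subunit of ribonucleotide reductase, went the other way, with a difference of 1.23 ± 0.16 between mTEChi and mTEClo. Its mTEChi arrays lay between 9.25 and 10.39, and the mTEClo arrays fell from 9.53 and 10.03 at 1 month to 7.35 and 7.55 at 6 months, so that the populations overlapped at 1 month. Pole, the catalytic subunit of the leading-strand polymerase, was higher in mTEChi by 1.17 ± 0.16 with no overlap of the arrays (15.1% of all genes were higher without overlap), and Ccne2 by 1.10 ± 0.19. Pold1 fell just short of 2-fold (0.98 ± 0.14). The difference of Rfc3, a clamp-loader subunit, was −0.93 ± 0.16, also short of 2-fold, and its second probe set gave −1.01. The second probe set of Pold1 gave 0.39.

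**Figure D2:**
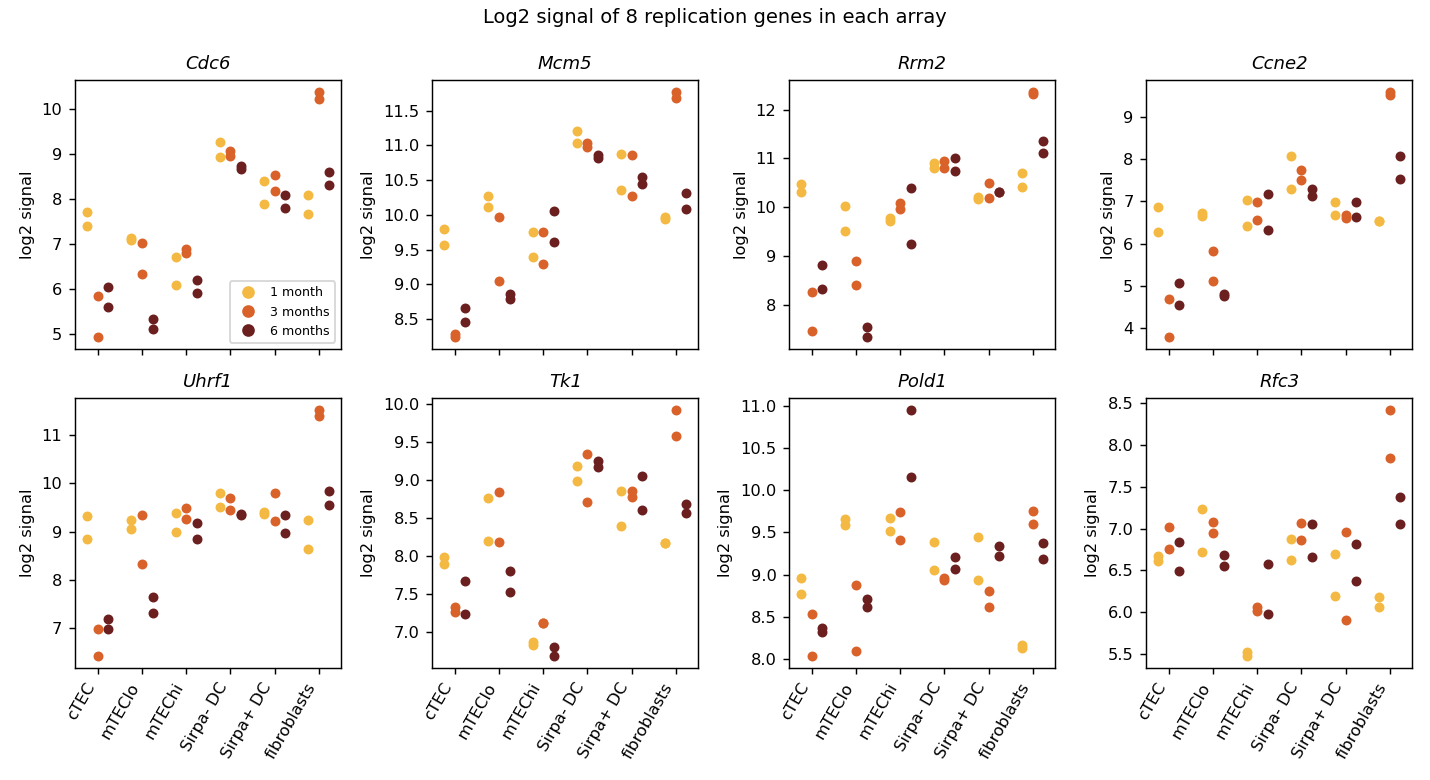
Log2 signal of 8 replication genes (panels) in each array, by population (x axis) and age (colour); each point is 1 array. Tk1 is lowest in all mTEChi arrays, between 6.69 and 7.12, Pold1 is highest in mTEChi at 6 months (10.15 and 10.94), and Cdc6, Mcm5, Rrm2, Ccne2 and Uhrf1 are highest in fibroblasts at 3 months.

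With all 6 populations included, the change with age differed between populations for nearly the whole list. A moderated F-test over the 10 population-by-age terms called 31 of 32 members (limma; background 15.7%), all but Orc1 (adjusted p = 0.55), a subunit of the origin recognition complex. The smallest p belonged to Prim1 (adjusted p = 2.5e-06). The F-test does not tell which populations differed, and it was not run without the fibroblasts. In cTEC 17 members fell and 1 rose by 3 months (background 3.88% lower and 1.52% higher). In mTEClo 20 fell by 6 months (background 3.87% lower). In mTEChi 4 passed the test by 6 months (background 6.17% higher and 3.34% lower). In the DC populations 0 passed at any age, and at most 1.35% of all genes were called there in either direction. In fibroblasts 31 rose by 3 months (background 10.1% higher) and 23 fell between 3 and 6 months (background 9.24% lower).

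**Figure D3:**
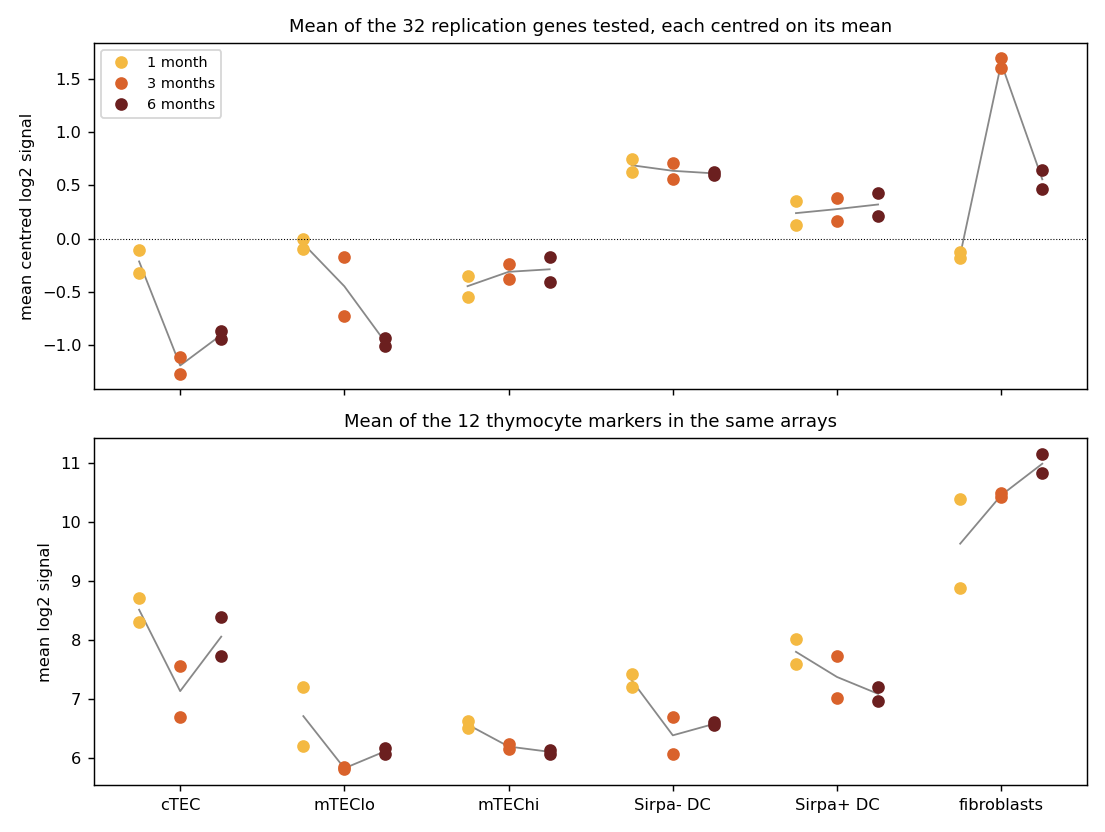
Upper panel, mean over the 32 replication genes tested, each centred on its mean over the 36 arrays (log2 units); lower panel, mean log2 signal of 12 thymocyte markers in the same arrays. Points are arrays, coloured by age, and lines join the means of each pair. The replication genes are lowest in cTEC at 3 months (−1.26 and −1.11) and highest in fibroblasts at 3 months. The thymocyte markers are highest in fibroblasts at 6 months (10.82 and 11.15).

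In cTEC, replication genes fell between 1 and 3 months. Of 32 members, 17 were lower and 1 was higher at 3 months (limma, adjusted p under 0.05, 2 arrays against 2; background 3.88% lower and 1.52% higher), with a median of −0.80 against −0.08 over all genes. Rrm2 measured 10.47 and 10.31 at 1 month, 7.47 and 8.27 at 3 months and 8.34 and 8.83 at 6 months. Both later ages lay below the 1-month arrays, and the change to 3 months was −2.52 ± 0.28 (adjusted p = 5.9e-06). Uhrf1 went from 9.33 and 8.84 to 6.42 and 6.98, and then to 6.96 and 7.18. Ccne2, the cyclin that drives entry into S phase, went from 6.87 and 6.29 to 3.79 and 4.70. Cdc6 went from 7.70 and 7.39 to 4.93 and 5.84. The 3-month Ccne2 values and the lower Cdc6 value lay below the pooled median (5.66), so dim signal limits the size of these falls.

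Among the licensing genes, Cdc6, Cdt1, Mcm2, Mcm3, Mcm5, Mcm6 and Mcm7 fell, with Mcm6 falling by 1.80 and Mcm2 by 0.79. Their second-brightest probe sets gave −1.06 for Mcm6 and −1.19 for Mcm2, so their order depended on the probe set. Mcm4 (−0.75), Orc6 (−0.45) and Orc1 (−0.33) did not pass. Mcm10, Cdc45 and Gins1 fell, as did Rrm1, Rrm2 and Chek1, the checkpoint kinase gene. Of the 10 fork genes only Prim1 (−1.38) and Rfc4 (−0.92) passed as lower, and the fork median was −0.72 against −1.18 for licensing. At an unadjusted p under 0.05, 26 of the 32 members were lower and 1 was higher. The lower ones included the fork genes Pcna, Rfc5, Pola1, Pold1, Pole and Lig1, so most fork genes had lower means without passing. Fen1, the flap nuclease of Okazaki fragment processing, was the member that rose, from 10.66 and 10.70 to 11.57 and 11.33 (0.77 ± 0.19). Its second, dimmer probe set fell by 0.69, so the 2 probe sets disagree and the direction for Fen1 is uncertain. Of the 56 further genes, 19 fell and 0 rose, among them Hells (−2.56), a chromatin remodeler, Rad51ap1 (−2.49), Ccna2 (−2.45), the S-phase cyclin, Top2a (−2.26), Cdc7 (−1.99), the kinase that fires origins, and Dna2 (−1.94).

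At 6 months, 11 members were still below 1 month in cTEC and 0 were above (limma; background 3.74% lower and 2.71% higher), led by Uhrf1 (−2.01 ± 0.28) and Rrm2 (−1.81 ± 0.28). Between 3 and 6 months Mcm3 (1.07 ± 0.28) and Mcm6 (0.99 ± 0.25) rose and Fen1 fell by 1.11 (background 2.74% higher and 1.1% lower). Leaving out either 3-month array or the second 6-month array ended the Mcm3 and Mcm6 calls, and the last of these also ended that of Fen1. The mean over the 32 members, each centred on its own mean, was −0.21 at 1 month, −1.19 at 3 months and −0.90 at 6 months in cTEC. The thymocyte markers also changed with age there, and their part in the change was not tested beyond a covariate. Their mean was 8.71 and 8.30 at 1 month, 6.69 and 7.56 at 3 months and 7.72 and 8.38 at 6 months, and 4 of 12 fell and 0 rose between 1 and 3 months. With this mean as a covariate, 10 members fell between 1 and 3 months and 10 between 1 and 6 months. The mean of 7 cTEC markers also shifted, from 11.63 and 10.89 at 1 month to 10.05 and 10.03 at 3 months and 10.22 and 11.06 at 6 months. That of 5 mTEClo markers in these arrays was 10.05 and 10.75, then 10.74 and 10.77, then 10.64 and 10.14. The part of this shift in the fall of the replication genes was not tested. The 3′ minus 5′ signal of control probe sets, a sign of RNA quality, was 2.63 and 2.43 at 1 month and 1.94 to 2.04 later, and with it as a covariate 12 and 7 members fell. Without the first 1-month array, 8 and 4 members fell; without the first 3-month array 10 fell by 3 months, and without the first 6-month array 7 by 6 months.

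In mTEClo, more members had fallen by 6 than by 3 months; whether the timing differed from that in cTEC was not tested. Between 1 and 3 months only Pold1 (−1.13 ± 0.24) and Rrm2 (−1.11 ± 0.28) fell (limma; background 1.15% lower and 0.621% higher), with 10 lower at an unadjusted p under 0.05, and by 6 months 20 of 32 members had fallen and 0 had risen (background 3.87% lower and 2.55% higher), with a median of −0.87 against −0.09 over all genes. Rrm2 led again, by −2.33 ± 0.28 (adjusted p = 7.9e-06). Ccne2 measured 6.74 and 6.67 at 1 month, 5.83 and 5.12 at 3 months and 4.80 and 4.76 at 6 months, with no overlap between ages. Cdc6 measured 7.07 and 7.13, then 7.01 and 6.32, then 5.32 and 5.12, so that its 1- and 3-month arrays lay close and the 6-month arrays apart. The 6-month values of Ccne2 and Cdc6 lay below the pooled median (5.66), where signal is dim. Uhrf1 (−1.68), Ccne1 (−1.49), Mcm5 (−1.37) and Mcm6 (−1.32) followed. The calls covered 5 of 10 licensing genes, 3 of 4 helicase-activation genes, 5 of 10 fork genes, Rrm2 and Tk1, both cyclin E genes, and all 3 repair, checkpoint and chromatin genes.

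Brca1, the homologous-recombination gene, fell by 1.01 in mTEClo, where it had been −0.78 without passing the test in cTEC at 3 months. Of the further genes, 14 of 56 fell and 0 rose, among them Rad51ap1 (−2.29), Ccna2 (−2.02), Hells (−1.69) and Top2a (−1.52), Exo1 (−1.47), a mismatch-repair nuclease, and Dnmt1 (−1.33), the maintenance DNA methyltransferase. Cdc6, Uhrf1, Rrm2, Mcm10 and Gins1 fell between 3 and 6 months (limma; background 0.807% lower and 1.58% higher). The second 3-month mTEClo array was lower than the first for 30 of 32 members. Without the first 3-month array 6 members fell by 3 months and 0 between 3 and 6 months, and without the second 0 and 11 did. Without either 1-month array the early count was 1 or 0, and without either 6-month array the late count was 2 or 0. The count of 20 was 8 to 12 on leaving out any of the 4 arrays concerned. The 3′ minus 5′ signal was 2.73 and 2.62 at 1 month, 3.07 and 1.90 at 3 months and 1.84 and 1.98 at 6 months, and with it as a covariate 8 members fell between 1 and 6 months. The thymocyte markers averaged 6.20 and 7.20 at 1 month and 6.16 and 6.06 at 6 months, and with them as a covariate 18 fell.

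**Figure D4:**
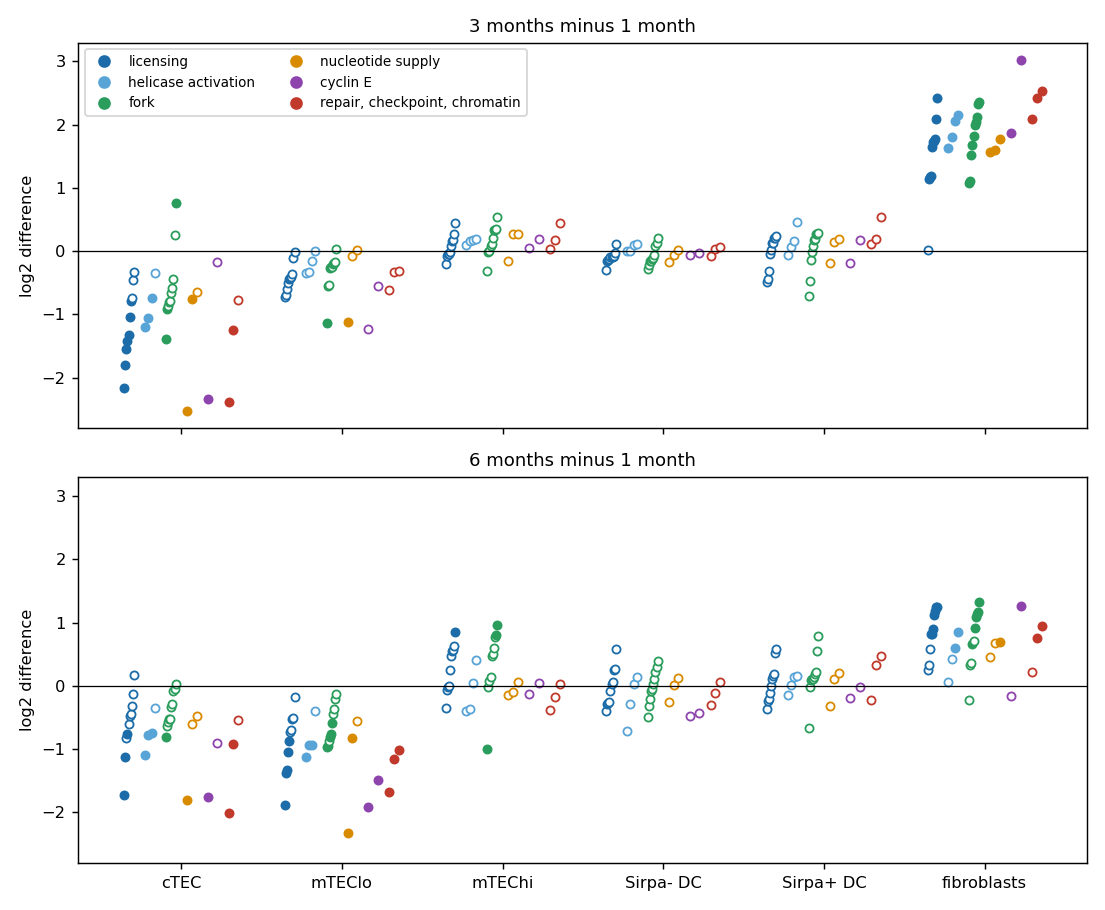
Log2 difference of each replication gene from 1 to 3 months (upper panel) and from 1 to 6 months (lower panel) in the 6 populations; each point is 1 gene, coloured by role, and filled points have a limma adjusted p under 0.05. In cTEC 17 genes fell and 1 rose by 3 months (background 3.88% lower and 1.52% higher). In mTEClo 20 fell by 6 months (background 3.87% lower), and in fibroblasts 31 rose by 3 months (background 10.1% higher).

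The mTEChi arrays held no general fall. Between 1 and 3 months, no member was called (limma; background 0%, and 0 members at an unadjusted p under 0.05), with differences from −0.31 to 0.53. By 6 months Pold1 (0.96 ± 0.24), Orc6 (0.86 ± 0.23) and Prim1 (0.81 ± 0.19) had risen and Fen1 had fallen by 0.99 (background 6.17% higher and 3.34% lower). Pold1 measured 9.67 and 9.52 at 1 month, 9.74 and 9.41 at 3 months and 10.15 and 10.94 at 6 months. Leaving out the second 1-month array ended the 3 rises, and the fall of Fen1 was then the only call. Fitting only the groups compared left 0 calls. Between 3 and 6 months Pold1 rose by 0.97 and Fen1 fell by 0.99 (background 5.17% and 2.7%), without the second 6-month array neither was called, without the second 3-month array Fen1 alone was, and without the first 6-month array 4 were. These Fen1 values come from its brighter probe set. With both probe sets averaged, Fen1 did not pass in mTEChi by 6 months (−0.28; limma adjusted p = 0.36), nor between 3 and 6 months in mTEChi (−0.44; adjusted p = 0.14) or cTEC (−0.11; adjusted p = 0.80).

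The difference between the medullary populations was tested directly, in a contrast added after the values were seen. The change from 1 to 6 months was lower in mTEClo than in mTEChi for 15 of 32 members and higher for 0 (limma; background 4.97% lower and 1.59% higher), led by Rrm2 (−2.39 ± 0.39), Ccne2 (−1.96 ± 0.46), Pold1 (−1.91 ± 0.34) and Mcm6 (−1.87 ± 0.36). Here 7 of the 10 licensing genes were called, among them Cdc6 and Mcm2 to Mcm7. The count was 7 with the 3′ minus 5′ covariate. It was 6 to 8 without any of the 4 mTEClo arrays concerned or the second 1-month mTEChi array.

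The change from 1 to 3 months was lower in cTEC than in mTEC for 8 members (limma; background 0.807% lower and 0.317% higher): Uhrf1 (−2.32 ± 0.35), Cdc6, Rrm2, Ccne2, Prim1, Mcm3, Mcm6 and Mcm10. The count was 4 without the first 1- or 3-month cTEC array, 5 without the first 3-month mTEClo, second 1-month mTEChi or first 3-month mTEChi array, and 5 with the thymocyte covariate. By 6 months no member differed between cTEC and mTEC in its change (limma; background 0.214% lower and 0.455% higher), with 3 lower at an unadjusted p under 0.05. Set against the DC populations, the epithelial mean change was lower for Rrm2 at 3 months (−1.20 ± 0.25; background 0.159% lower and 0.0828% higher). At 6 months it was lower for Rrm2 (−1.42 ± 0.25), Uhrf1, Cdc6 and Chek1 (background 1.01% lower and 0.897% higher). The Rrm2 call at 3 months was lost without any of 15 of the 20 arrays concerned, and the count at 6 months was 1 or 2 without any of 12 of 20 and 9 without the first 6-month mTEChi array.

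In the DC populations no member was called at any age. In Sirpa- DC, the differences ran from −0.29 to 0.21 between 1 and 3 months (limma; background 0.0207% lower and 0.0138% higher, 0 members at an unadjusted p under 0.05) and from −0.71 to 0.58 between 1 and 6 months (background 0.366% lower and 0.538% higher). In the latter comparison Gins1 (−0.71; adjusted p = 0.060) and Mcm3 (0.58) had an unadjusted p under 0.05. Gins1 measured 8.74 and 8.90 at 1 month, 8.80 and 8.84 at 3 months and 7.99 and 8.22 at 6 months, so the 6-month arrays lay below the others. In Sirpa+ DC, 1 member was lower at an unadjusted p under 0.05 between 1 and 3 months, and 4 were higher and 1 lower between 1 and 6 months (background 0.193% lower and 0.138% higher by 3 months, 0.717% lower and 1.35% higher by 6 months). Between 3 and 6 months, an unadjusted p under 0.05 was reached by 2 members in Sirpa- DC and by 2 in Sirpa+ DC, the former lower and the latter higher at 6 months (background 0.0897% lower and 0.2% higher in Sirpa- DC, 0.386% lower and 0.849% higher in Sirpa+ DC). Standard errors of these differences were 0.18 to 0.33 log2 units.

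In fibroblasts nearly every member rose and most then fell. Between 1 and 3 months, 31 of 32 members rose (limma; background 10.1% higher and 10.4% lower), with a median of 1.80 against −0.02 over all genes. Ccne2 measured 6.53 and 6.54 at 1 month, 9.59 and 9.52 at 3 months and 7.53 and 8.07 at 6 months, and the ages did not overlap. Its rise by 3 months was 3.02 ± 0.33. Uhrf1 rose from 8.63 and 9.24 to 11.41 and 11.52 and stood at 9.84 and 9.55 at 6 months. Brca1 rose from 6.90 and 7.16 to 9.33 and 9.59 and returned to 7.28 and 7.21. Cdc6 rose by 2.42, Pole by 2.36, Pola1 by 2.33, Cdc45 by 2.15 and Lig1, the ligase that seals Okazaki fragments, by 2.12. Orc1 measured 7.21 and 6.69 at 1 month and 6.97 and 6.98 at 3 months, and was the exception (0.02 ± 0.23). By role the medians were 2.45 for cyclin E, 2.43 for repair, checkpoint and chromatin, 1.93 for helicase activation, 1.91 for the fork, 1.69 for licensing and 1.60 for nucleotide supply. Of the further genes 45 of 56 rose and 1 fell. The largest rises were those of Hells (2.97), Dna2 (2.40), Rad51ap1 (2.39), Clspn (2.33), a checkpoint mediator, Chaf1b (2.26), a chromatin assembly subunit, and Exo1 (2.12). Samhd1 (−0.57), which breaks down deoxynucleotides and was named after its value was seen, was the one that fell.

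Between 3 and 6 months 23 members fell in fibroblasts and 0 rose (limma; background 9.24% lower and 6.91% higher), with a median of −1.11, led by Brca1 (−2.21 ± 0.27), Ccne1 (−2.04 ± 0.32) and Cdc6 (−1.84 ± 0.28). The fall covered all 4 helicase-activation genes and 7 of 10 fork genes but 4 of 10 licensing genes, with Mcm7 (−0.31), Cdt1 (−0.35) and Orc6 (−0.30) among those that did not pass. When only the groups compared were fitted, 2 members were called. Relative to 1 month, 19 members were still higher at 6 months (background 15.8% higher and 20.4% lower), 7 of 10 licensing genes among them, with Pola1 (1.32 ± 0.26), Ccne2 (1.27 ± 0.33) and Mcm6 (1.25 ± 0.25) leading. This count was 8 without the second 6-month array and 10 without the first 1-month array.

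The thymocyte markers in the fibroblast arrays averaged 8.87 and 10.38 at 1 month, 10.49 and 10.41 at 3 months and 10.82 and 11.15 at 6 months, and all 12 were above the pooled median at every age. Of the 12, 4 rose and 0 fell by 3 months and 8 rose by 6 months. Their mean was highest at 6 months, and that of the replication genes at 3 months. With the thymocyte mean as a covariate, 31 members rose by 3 months and 7 by 6 months. The 3′ minus 5′ signal was 3.15 and 2.37 at 1 month, 2.28 and 1.94 at 3 months and 1.86 and 1.72 at 6 months. With it as a covariate, 31 members rose by 3 months and 21 by 6 months, and 21 fell between 3 and 6 months. In the comparison of fibroblasts with the other populations, 12 members were called higher and 0 lower (limma; background 8.38% higher and 9.98% lower), led by Cdc6 and Rrm2 (each 1.66 ± 0.12). With the thymocyte covariate 2 were called. The mean of 8 fibroblast markers ran from 12.93 and 12.78 at 1 month to 11.91 and 9.52 at 6 months, and the first 1-month array had a mean erythroid marker level of 7.06 against 5.01 to 5.36 in the other fibroblast arrays. The part of these other cells in the change with age was not tested beyond the covariate.

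The change in fibroblasts between 1 and 3 months was compared with the mean change of the other 5 populations in a contrast that was also added after the values were seen. It was higher for 31 of 32 members (limma; background 9.94% higher and 7.8% lower), led by Ccne2 (3.77 ± 0.36), Uhrf1 (3.02 ± 0.31) and Cdc6 (2.83 ± 0.30), and 29 were called with the thymocyte covariate. Averaged over the 6 populations, Rfc3 (0.50), Brca1 (0.39) and, by its brighter probe set, Fen1 (0.31) rose by 3 months (limma; background 1.84% higher and 4.5% lower). By 6 months 11 members fell and 5 rose (background 21.7% lower and 14.9% higher), and with the 3′ minus 5′ covariate 2 fell and 0 rose. With probe sets of unique design only, the balance turned, with 8 higher and 6 lower. Between 3 and 6 months 14 fell and 2 rose (background 16% lower and 15.5% higher). The average joins populations in which the genes moved in opposite directions.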

How the data were processed

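RNA of 36 sorted samples was measured on Affymetrix mouse arrays. The authors deposited log2 signals, one per probe set and array, normalised by the authors with Gene Expression Commons per the series' design text, and with GCRMA per the submitters' processing notes, with no version. The log base was read from the values. Control probe sets and those without 1 symbol were left out. Each of 18193 genes was read from its brightest probe set on average, and 14495 genes above the pooled median (5.66) in at least 2 arrays were tested. Group means (18 groups) were estimated with limma 3.58.1 in R 4.3.3 (18 residual degrees of freedom, intensity trend, two-sided, Benjamini-Hochberg over all genes tested). Calls needed an adjusted p under 0.05, and between populations also a 2-fold difference. The fit was tested on simulated data.

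All members were described; of the 56 further genes, at most the 6 called ones that changed most were named. The members, lists and roles were chosen with earlier results of these data known. Alternatives were other probe set choices, dimness filters, scaling, variance models, thresholds, covariates, the replicate block and leaving out each array. The deviations of same-numbered arrays had a median r of 0.09, 0.17 and 0.05 at 1, 3 and 6 months. At 3 months 10 of 15 pairs of populations had an r above 0.1, the highest being 0.42. Whether the numbers pair arrays was not settled. The main fit did not pair them, and the replicate block was the alternative.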

Additional observations from a re-analysis of the deposited data

Results flagged for a closer look

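Changes with age differed between populations, as tested by terms for that difference in limma, in these results. The moderated F-test, fibroblasts included, called 31 of 32 members (background 15.7%). The change from 1 to 3 months was higher in fibroblasts than in the mean of the other 5 populations for 31 members (background 9.94% higher). The differences were 3.77 for Ccne2, 3.02 for Uhrf1 and 2.83 for Cdc6. The change from 1 to 3 months was lower in cTEC than in mTEC for 8 members (background 0.807% lower), with −2.32 for Uhrf1, −2.17 for Cdc6 and −2.10 for Rrm2. The change from 1 to 6 months was lower in mTEClo than in mTEChi for 15 members (background 4.97% lower), with −2.39 for Rrm2, −1.96 for Ccne2 and −1.91 for Pold1. Between the epithelial and DC means, the change was lower in epithelium for 1 member by 3 months (Rrm2, −1.20, background 0.159% lower). By 6 months it was lower for 4 (background 1.01% lower), with −1.42 for Rrm2, −1.02 for Uhrf1 and −1.01 for Cdc6. The Rrm2 call at 3 months was lost on leaving out most single arrays, as given above. The fibroblast and the mTEClo against mTEChi contrasts were added after the values were seen. Groups held 2 arrays each, too few to look for single outlying arrays.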

How the results depend on the processing

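Counts below are of members called, higher and lower together. With 4-fold between populations and 2-fold between ages, 0 were called for cTEC, mTEClo, mTEChi, Sirpa- DC and fibroblasts against the other 5, mTEChi against mTEClo, cTEC against mTEC, mTEChi at 6 against 1 month and the mean of 6 populations at every age. Epithelium against DC then gave 1, and at 6 against 1 month cTEC gave 6, mTEClo 11 and fibroblasts 9. With probe sets of unique design only, chosen after seeing the data, cTEC gave 8, mTEClo 2, mTEClo 0 at 3 and 12 at 6 against 1 month, the mean of 6 populations 14 at 6 against 1 month (8 higher, 6 lower), the epithelium against DC change 0 and 2, and the mTEClo against mTEChi change 8. With the 3′ minus 5′ covariate, Sirpa- DC gave 14, Sirpa+ DC 1, cTEC against mTEC 2, cTEC 7 and mTEClo 8 at 6 against 1 month, the mean of 6 populations 1 and 2, the epithelium against DC change at 3 months 0, and the mTEClo against mTEChi change 7. With the thymocyte covariate, fibroblasts gave 2, cTEC against mTEC 3, Sirpa+ against Sirpa- DC 1, cTEC 10 and mTEClo 1 at 3 against 1 month, fibroblasts 7 at 6 against 1 month, the mean of 6 populations 1, the cTEC against mTEC change 5, and cTEC at 6 against 3 months 1. With all probe sets averaged, cTEC against mTEC gave 0, mTEClo 1 at 3 months, Sirpa+ DC 1 at 6 months and the epithelium against DC change 0 at 3 months. Quantile normalization gave 2 for cTEC against mTEC, 1 for Sirpa- DC at 6 months and 6 for the mean of 6 populations at 3 months. Fitting only the groups compared gave mTEClo 1 at 3 months, and at 6 against 1 month cTEC 7, mTEClo 12, mTEChi 0, Sirpa- DC 1 and fibroblasts 10; at 6 against 3 months it gave fibroblasts 2 and cTEC 1. With equal array medians the epithelium against DC change at 3 months gave 0. The replicate block gave Sirpa- DC 1 call at 6 against 1 month and mTEChi 4 at 6 against 3 months. Of 261 calls of single members, it ended 1, the stricter fold thresholds 107 and the thymocyte covariate 50. Averaging probe sets ended 47 and the 3′ minus 5′ covariate 45. Fitting only the groups compared ended 64 of 159, and unique probe sets ended 32 of 212. Quantile normalization ended 14 of 261.

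Leaving out each array in turn gave 14 to 17 for cTEC, 4 to 5 for mTEClo, 2 to 5 for mTEChi, 8 to 9 for Sirpa- DC, 10 to 13 for fibroblasts, 3 to 5 for mTEChi against mTEClo, 1 to 3 for cTEC against mTEC, 0 to 1 for Sirpa+ against Sirpa- DC and 15 to 18 for epithelium against DC. At 3 against 1 month it gave 8 to 16 in cTEC, 0 to 6 in mTEClo and 30 to 31 in fibroblasts; at 6 against 1 month 4 to 9 in cTEC, 8 to 12 in mTEClo, 1 to 6 in mTEChi and 8 to 20 in fibroblasts; at 6 against 3 months 0 to 2 in cTEC, 0 to 11 in mTEClo, 0 to 4 in mTEChi and 19 to 20 in fibroblasts. The mean of 6 populations gave 2 to 5, 13 to 17 and 11 to 18. Changes gave 0 to 2 and 1 to 9 for epithelium against DC, 4 to 12 for cTEC against mTEC, 29 to 31 for fibroblasts and 6 to 16 for mTEClo against mTEChi. A group left with 1 array was assumed to vary like the others. The cause of these shifts was not tested. Of the called single-member results, 0 reversed where an alternative was run. The calls for the mean of 6 populations were not among those checked. Unique probe sets covered 212 of 261, only the groups compared 159 and leaving out the fibroblast arrays 114. Fen1 has no unique probe set and was not covered by that alternative. Dim signal limits Tyms. It also limits the low values of Ccne2, Pole and Cdc6, which exceeded the pooled median in 29, 30 and 32 of 36 arrays.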
